A study of Homo sapiens with 4 samples.

Results

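The genes of the mitochondrial genome were followed in 786-O cells, a human renal carcinoma line, with and without a knockout of DEK. They were taken as all rows of the TPM table whose symbol starts with MT-, which gave 37 of 59409 symbols. The set holds 13 mRNAs, 2 rRNAs and 22 tRNAs, and 28 of the genes lie on the plus strand and 9 on the minus strand of the reference. There were 2 libraries from DEK KO cells and 2 from negative control cells labelled WT. The control cells carry Cas9, per the names of their libraries, and the Cas9-expressing clone had been made with LentiCas9-Blast virus. The knockout clones were made from such Cas9 cells with LentiGuide-Puro virus carrying DEK gRNAs and sorted as single cells, so knockouts and controls share the Cas9 vector, and the labels do not say which clone a knockout library came from. Nor do they state that replicate libraries are from separate cultures, so the p-values reflect variation among 4 libraries that could be technical alone. In these libraries an effect of the guide virus, the sorting or the clone cannot be told apart from one of the DEK knockout. Values are TPM, a length-normalised abundance. They divide reads by gene length and scale each library to the same total.

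The mitochondrial genome is a small circle present in many copies per cell. It encodes subunits of respiratory complexes I, III, IV and V, the RNAs of the mitochondrial ribosome and the tRNAs used there. Both strands are transcribed by the polymerase POLRMT with TFAM and TFB2M into long precursors, from which tRNAs are cut out at both ends, releasing the mRNAs and rRNAs between them. The mRNAs then receive poly(A) tails, with MT-ND6 in human cells as the known exception, and the LRPPRC and SLIRP proteins bind and stabilise them. Libraries were of polyadenylated RNA per the labels, so the values of the tRNAs, the rRNAs and MT-ND6 need not follow the amounts of these RNAs in the cells.

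The libraries were checked with a few genes outside the set. DEK mRNA was at 31.4 and 15.7 TPM in the knockouts, against 95.02 and 76.3 TPM in the controls (limma adjusted p = 0.030). The renal factor PAX8 was at 140.1 to 160.4 TPM over all libraries, vimentin (VIM) at 7215 to 8346 TPM, the leukocyte marker CD3E was listed at 0 in every library, and PTPRC reached at most 0.013 TPM. The endothelial marker PECAM1 reached at most 0.028 TPM, the fibroblast marker LUM at most 0.071 TPM and EPCAM, a marker of other epithelia, at most 0.649 TPM. PAX2, another renal lineage factor, had 12.4 and 8.94 TPM in the knockouts and 24.8 and 22.1 TPM in the controls (limma adjusted p = 0.027), and the keratin KRT18 had 266.6 and 285.3 TPM in the knockouts and 208.3 and 204.2 TPM in the controls (limma adjusted p = 0.025). Their part in the results was not tested. Of 15815 genes tested, 1433 rose and 1371 fell in the knockouts, and with scaling by the median ratio the split was 1588 against 955.

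The sequences of the tRNAs and mRNA ends that differed between the groups are given first, because the names alone do not show what was counted. They are the GRCh38 reference in GENCODE release 29, written 5′ to 3′ in the sense of the RNA with T for U. In the tRNAs, capitals mark the anticodon, which was found from the anticodon stem and the vertebrate mitochondrial code for 22 of 22 tRNAs. MT-TV carries valine (chrM:1602-1670, plus strand), MT-TC cysteine (chrM:5761-5826, minus strand), MT-TY tyrosine (chrM:5826-5891, minus strand) and MT-TD aspartate (chrM:7518-7585, plus strand).
MT-TV: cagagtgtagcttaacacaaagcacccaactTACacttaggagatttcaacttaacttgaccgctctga
MT-TC: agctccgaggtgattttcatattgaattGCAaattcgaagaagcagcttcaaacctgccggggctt
MT-TY: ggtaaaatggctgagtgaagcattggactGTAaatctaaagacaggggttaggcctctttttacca
MT-TD: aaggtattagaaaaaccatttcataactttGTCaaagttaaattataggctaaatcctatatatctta

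Polyadenylation also finishes the coding sequence of some of these messages. As annotated, 6 of the 13 mRNAs end in T or TA, and their stop codon becomes complete only when the tail adds A. The other 7 are annotated with a full final codon, but the last A of MT-ATP6 (chrM:9207) is also annotated as the first base of MT-CO3. The last 27 bases of the 3 mRNAs that differed are printed with the final codon, or what there is of it, in capitals.
MT-ATP6: agcctctacctgcacgacaacacaTAA
MT-CO3: atgtctccatctattgatgagggtctT
MT-ND6: gtaattgagattgctcgggggaatAGG

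Some neighbours overlap, and reads in the shared bases cannot be given to 1 gene. MT-ATP8 and MT-ATP6 share 46 bases (chrM:8527-8572), which is 22.2% of MT-ATP8, and MT-ND4L and MT-ND4 share 7 (chrM:10760-10766). The shared bases are in capitals, with 12 bases on each side.
MT-ATP8 and MT-ATP6: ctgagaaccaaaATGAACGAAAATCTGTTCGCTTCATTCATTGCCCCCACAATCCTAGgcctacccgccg
MT-ND4L and MT-ND4: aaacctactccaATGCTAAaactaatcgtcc

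The reads behind the values could be recovered for every gene of the set. In each library, TPM multiplied by gene length was a whole multiple of a single number for all genes above 0, with no value more than 9.28e-05 from a whole read. The set held 1426704 and 1596145 reads in the knockouts and 1641369 and 1831467 reads in the controls. Single mRNAs had 11578 to 339069 reads per library, so their counting error was at most 0.929%, while the median mRNA differed 1.03-fold between the knockouts and 1.09-fold between the controls. The tRNAs had 0 to 644 reads per library with a median of 49.5, so for many of them counting error sets the precision.

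Taken as a whole, the mitochondrial genome supplied 16.4% and 16.5% of all TPM in the knockouts, against 17.2% and 19.04% in the controls. Both knockouts lay below both controls, but the controls differed from each other by more than the distance between the nearest libraries of the 2 groups. An exact two-sided permutation test over the 4 libraries gave p = 0.333, the smallest this design allows. The mRNAs gave 14.9% and 15.1% of TPM in the knockouts and 15.5% and 17.3% in the controls. The tRNAs gave 0.488% and 0.438% in the knockouts and 0.391% and 0.438% in the controls, with overlapping groups (exact permutation p = 0.667). In bulk RNA, fewer mitochondrial genomes per cell and less RNA per genome cannot be told apart.

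The rRNA share was lower, at 1.02% and 0.935% of TPM in the knockouts against 1.29% and 1.32% in the controls (exact permutation p = 0.333, the smallest possible). By strand, the minus-strand genes made up 3.35% and 3.44% of the mRNA and tRNA signal in the knockouts and 2.62% and 2.51% in the controls, again without overlap (exact permutation p = 0.333). Their summed level was 5147 and 5354 TPM in the knockouts and 4162 and 4454 TPM in the controls, while that of the plus-strand mRNAs and tRNAs was 148331 and 150057 TPM in the knockouts and 154943 and 172763 TPM in the controls. Of the minus-strand sum, MT-ND6 alone had 2712 and 2967 TPM in the knockouts and 2180 and 2256 TPM in the controls. Among the tRNAs alone the minus-strand share overlapped, at 49.8% and 54.5% in the knockouts and 50.7% and 50.2% in the controls. Whether reads were assigned by strand is not given in the sources used here, so a gene and RNA from the opposite strand cannot be told apart in these values.

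**Figure D1:**
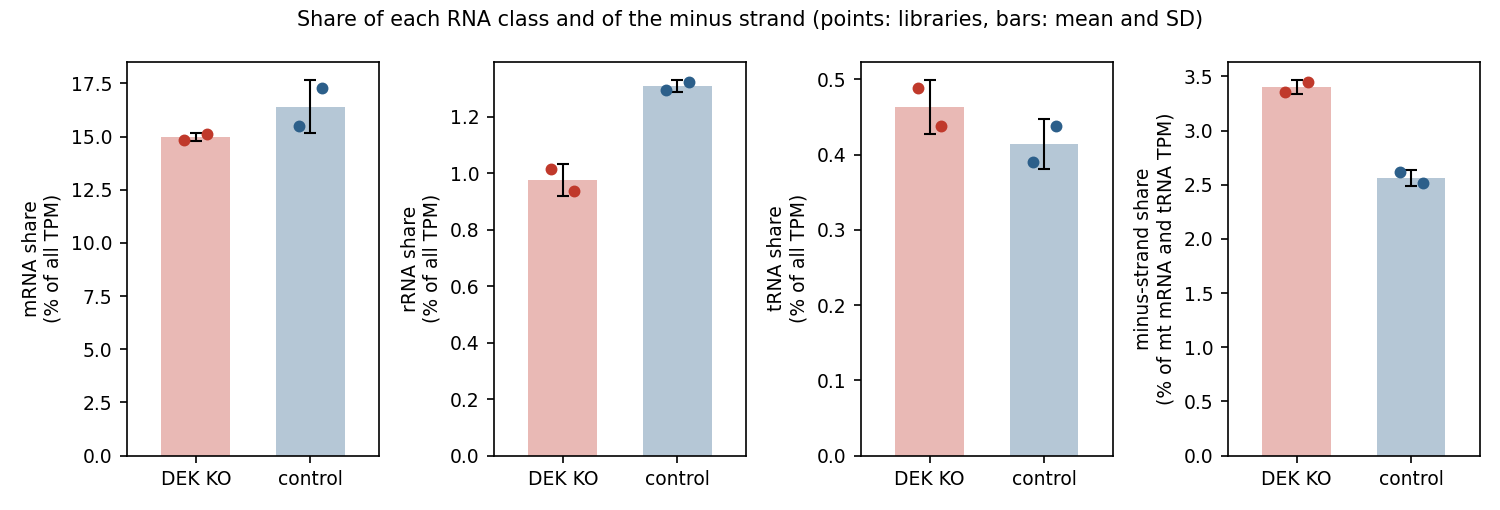
Share of all TPM taken by mitochondrial mRNAs, rRNAs and tRNAs, and share of the minus-strand genes within mitochondrial mRNA and tRNA TPM, for the 2 DEK KO and the 2 control libraries (points; bars give the mean and error bars the SD). The rRNA share is lower and the minus-strand share higher in both knockouts than in both controls, and the tRNA shares overlap.

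Gene by gene, 8 of the 37 genes passed the test across the whole table (limma, adjusted p under 0.05), all 37 having passed the filter on low values. That is 21.6% of the set, against 17.7% of all tested genes, so the share was near the background. Among tested nuclear genes with a mean of at least 1000 TPM, 42.7% passed, beside 23.1% of the mitochondrial mRNAs. MT-TC, MT-TY, MT-TD and MT-ND6 rose, beside 9.06% of all tested genes. MT-TV, MT-RNR2, MT-ATP6 and MT-CO3 fell, beside 8.67% of all tested genes. At an unadjusted p under 0.05 by limma the count was 14 of 37, with 38.3% of all tested genes below that value. Of the 9 minus-strand genes 3 rose and 0 fell (33.3%), and at an unadjusted p under 0.05 by limma 3 were higher and 1 was lower. Of the 28 plus-strand genes 1 rose and 4 fell (17.9%), beside 17.7% of all tested genes. At the same unadjusted p 3 plus-strand genes were higher and 7 were lower. MT-TC, among the 3 minus-strand genes that rose, had only 5 to 13 reads per library. The median log2 fold change was 0.16 for the minus strand and -0.03 for the plus strand, beside -0.06 for all tested genes. In 21 of 37 genes (56.8%) the groups did not overlap, against 68.3% of all tested genes. Both knockouts lay above both controls in 12 genes of the set and in 29.2% of all tested genes, and below them in 9 genes of the set and in 39.0% of all tested genes. The number past the threshold by limma was 0 without control 1 and 0 without control 2, and it was 9 without knockout 1 and 11 without knockout 2. In these fits the lone library is assumed to vary like the other group. The number was also 0 without the filter on low values and 2 with a single variance prior.

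**Figure D2:**
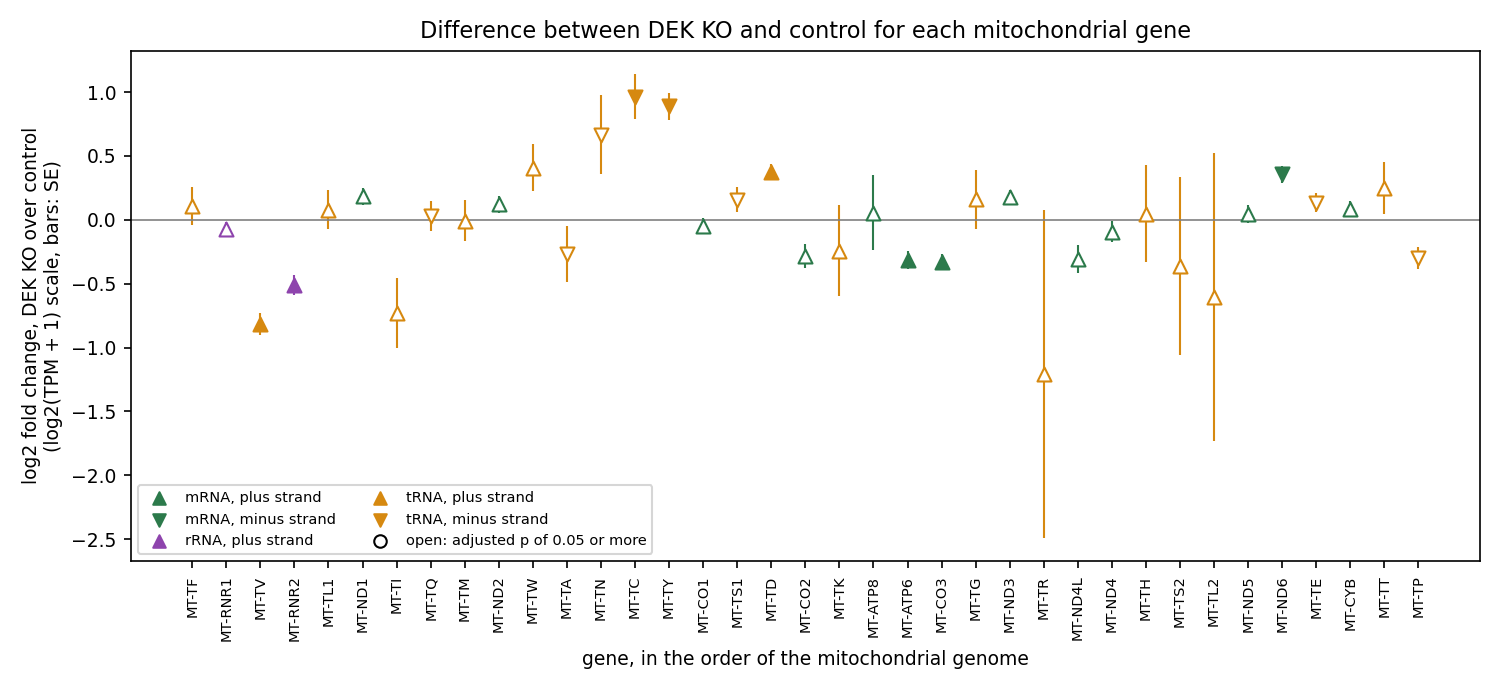
Log2 fold change of DEK KO over control with its SE (limma, log2(TPM + 1) scale) for the 37 genes in the order of the mitochondrial genome, by RNA class (colour) and strand (triangle direction), with genes past the threshold filled. MT-TV and MT-RNR2 near the left end fell, MT-TC and MT-TY on the minus strand rose side by side, and MT-ATP6 and MT-CO3 fell side by side.

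The rRNAs and the tRNA between them follow MT-TF at the start of the plus-strand precursor. MT-RNR2, the RNA of the large mitochondrial ribosomal subunit (chrM:1671-3229), had 8020 and 7183 TPM in the knockouts, against 10642 and 10984 TPM in the controls. Both knockouts were below both controls, and the mean fell to 7602 ± 592 TPM in the knockouts, against 10813 ± 242 TPM in the controls (SD, n = 2 each). The log2 fold change was -0.51 (SE 0.08; adjusted p = 0.024 by limma). MT-RNR1, the RNA of the small subunit (chrM:648-1601), had 2134 and 2171 TPM in the knockouts and 2292 and 2240 TPM in the controls. Its groups did not overlap, but the difference was small and did not pass (log2 fold change -0.07, SE 0.06, limma adjusted p = 0.37). With quantile normalization it passed, at a log2 fold change of -0.28 (limma adjusted p = 0.040).

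The ratio of MT-RNR2 to MT-RNR1 was 3.76 and 3.31 in the knockouts and 4.64 and 4.90 in the controls. MT-TV, the valine tRNA, lies between the rRNA genes and is also a structural part of the large mitochondrial ribosomal subunit in human cells. It had 134.3 and 140.5 TPM in the knockouts, against 227.8 and 258.3 TPM in the controls, from 86 and 101 reads against 159 and 187 reads. The groups lay far apart (log2 fold change -0.82, SE 0.09; adjusted p = 0.015 by limma). The ratio of the summed reads, adjusted for depth, was 0.565 (exact 95% interval 0.471 to 0.677, for counting error only).

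MT-TF, the phenylalanine tRNA that opens the same precursor, had 27.3 and 21.6 TPM in the knockouts and 20.9 and 24.2 TPM in the controls, with overlapping groups. MT-TL1, the leucine tRNA after MT-RNR2, whose gene holds the binding site of the termination factor MTERF1, had 579 and 464 TPM in the knockouts and 440.2 and 546 TPM in the controls. Its groups overlapped too. Of the 5 genes from MT-TF to MT-TL1, MT-TV and MT-RNR2 passed the test.

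Complex I takes 7 of its subunits from this genome. MT-ND6, the only mRNA on the minus strand (chrM:14149-14673), had 2712 and 2967 TPM in the knockouts, against 2180 and 2256 TPM in the controls. Both knockouts were above both controls, and the gene rose (log2 fold change 0.36, SE 0.07; adjusted p = 0.037 by limma), a 1.28-fold ratio of means. With quantile normalization its log2 fold change was 0.20 (limma adjusted p = 0.14). Its ratio to MT-ND5, the neighbour on the other strand whose 3′ end adjoins that of MT-ND6, was 0.386 and 0.450 in the knockouts and 0.345 and 0.328 in the controls. As MT-ND6 is the mRNA known to lack a poly(A) tail, its level and this ratio need not follow the amounts in the cells. MT-ND5 itself had 7031 and 6591 TPM in the knockouts and 6326 and 6873 TPM in the controls, with overlapping groups.

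MT-ND1, a subunit of the membrane arm near the quinone site, had 10281 and 9575 TPM in the knockouts and 8941 and 8540 TPM in the controls. MT-ND2, a proton-pumping membrane subunit, had 8209 and 8103 TPM in the knockouts and 7191 and 7808 TPM in the controls. MT-ND3 had 4290 and 4376 TPM in the knockouts and 3731 and 3945 TPM in the controls. All 3 had both knockouts above both controls and none passed the test, with log2 fold changes of 0.18, 0.12 and 0.18 (limma adjusted p = 0.12, 0.25 and 0.11). MT-ND1 passed with quantile normalization (log2 fold change 0.27, limma adjusted p = 0.048) and without knockout 2 (0.23, limma adjusted p = 0.049), and MT-ND3 with the GC trend removed (0.39, limma adjusted p = 0.047).

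MT-ND4L and MT-ND4 share a message. MT-ND4L had 10070 and 9721 TPM in the knockouts and 11057 and 13480 TPM in the controls, a lower level in both knockouts that did not pass (log2 fold change -0.30, SE 0.11, limma adjusted p = 0.12). It passed with quantile normalization (log2 fold change -0.23, limma adjusted p = 0.029). MT-ND4 had 15898 and 15507 TPM in the knockouts and 15808 and 17708 TPM in the controls, with overlapping groups. The ratio of MT-ND4L to MT-ND4 was 0.633 and 0.627 in the knockouts and 0.699 and 0.761 in the controls, although both are read from the same molecule. MT-CYB, cytochrome b and the sole complex III subunit made in mitochondria, had 7035 and 7075 TPM in the knockouts and 6494 and 6809 TPM in the controls (limma adjusted p = 0.35).

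**Figure D3:**
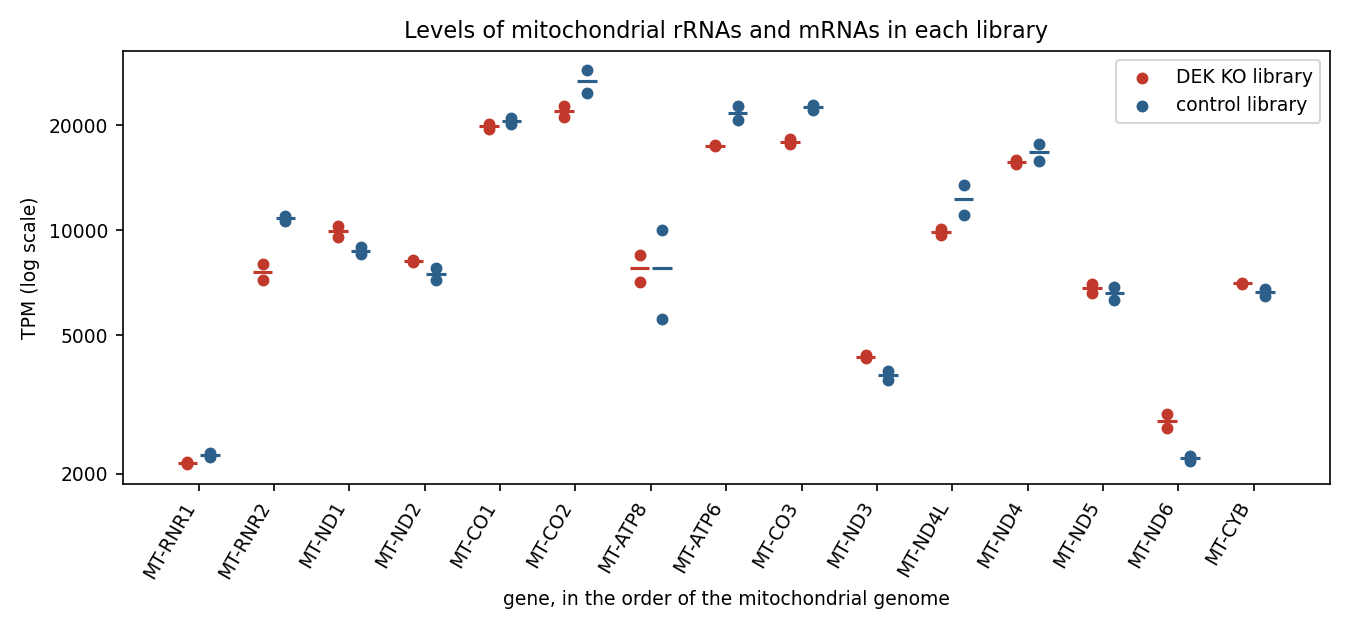
TPM of the 2 rRNAs and 13 mRNAs on a log axis in genome order, 1 point per library with a line at the group mean, DEK KO left of control for each gene. MT-RNR2, MT-ATP6 and MT-CO3 are lower and MT-ND6 higher in both knockouts, and MT-ATP8 is spread from 5552 to 10038 TPM between the controls.

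The complex IV and complex V messages include the most abundant RNAs of the libraries, with MT-CO2, MT-CO1, MT-CO3 and MT-ATP6 as the 4 highest of all genes by mean TPM. MT-CO3, a core subunit of cytochrome c oxidase (chrM:9207-9990), had 17641 and 18253 TPM in the knockouts, against 22125 and 22906 TPM in the controls. The groups were well apart, and the gene fell (log2 fold change -0.33, SE 0.06; adjusted p = 0.035 by limma). MT-ATP6, the membrane subunit that forms the proton channel of ATP synthase (chrM:8527-9207), had 17579 and 17429 TPM in the knockouts, against 20769 and 22762 TPM in the controls. It fell (log2 fold change -0.31, SE 0.07; adjusted p = 0.049 by limma).

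The falls of MT-ATP6 and MT-CO3 did not pass under several settings, with MT-ATP6 past the threshold in 3 of 13 alternatives and MT-CO3 in 5. With quantile normalization the log2 fold changes were -0.06 and -0.10 (limma adjusted p = 0.26 and 0.10), and with scaling by the median ratio they were -0.25 and -0.27 (limma adjusted p = 0.11 and 0.069). MT-ATP6 was also not called with the GC trend removed (limma adjusted p = 0.084) or without knockout 2 (0.054). MT-CO2, which carries the CuA copper centre of cytochrome c oxidase, had 21204 and 22724 TPM in the knockouts and 24810 and 28752 TPM in the controls, without overlap and without passing (limma adjusted p = 0.10). MT-CO1, the subunit with the oxygen-reducing centre, had 19549 and 20222 TPM in the knockouts and 20210 and 20958 TPM in the controls, with overlapping groups. Its log2 fold change was -0.05 and turned to 0.16 with quantile normalization (limma adjusted p = 0.043).

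MT-ATP8, a small accessory subunit of ATP synthase encoded on the same message as MT-ATP6, was the mRNA with the widest spread. It had 7093 and 8488 TPM in the knockouts and 5552 and 10038 TPM in the controls, a 1.81-fold range between the controls alone. The reads behind the control values were 11628 and 21800, so counting error is far too small to set that range. The ratio of MT-ATP8 to MT-ATP6 was 0.403 and 0.487 in the knockouts and 0.267 and 0.441 in the controls. No statement on MT-ATP8 between the groups can be drawn from these values.

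The make-up of the mRNA pool is not affected by a factor that scales a whole library. Complex I messages made up 39.4% and 37.6% of the summed mRNA TPM in the knockouts and 35.6% and 35.1% in the controls. Complex IV messages made up 39.3% and 40.5% in the knockouts and 43.3% and 42.02% in the controls. Both shares were without overlap between the groups (exact permutation p = 0.333 each, the smallest possible). MT-CYB took 4.73% and 4.68% in the knockouts and 4.18% and 3.94% in the controls. Complex V shares overlapped, at 16.6% and 17.2% in the knockouts and 16.96% and 18.98% in the controls. Shares of 1 pool are tied to each other, so a higher share of one complex needs a lower share of another.

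Within complex I the members differed. MT-ND6 held 1.83% and 1.96% of the mRNA pool in the knockouts against 1.40% and 1.31% in the controls, and MT-ND3 2.89% and 2.90% against 2.40% and 2.28%. MT-ND4L was on the other side, with 6.78% and 6.44% in the knockouts and 7.12% and 7.80% in the controls. In complex IV, MT-CO1 held 13.2% and 13.4% in the knockouts and 13.02% and 12.1% in the controls, while MT-CO3 held 11.9% and 12.1% in the knockouts and 14.3% and 13.3% in the controls. MT-CO2, the remaining complex IV message, held 14.3% and 15.05% in the knockouts and 15.99% and 16.6% in the controls.

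**Figure D4:**
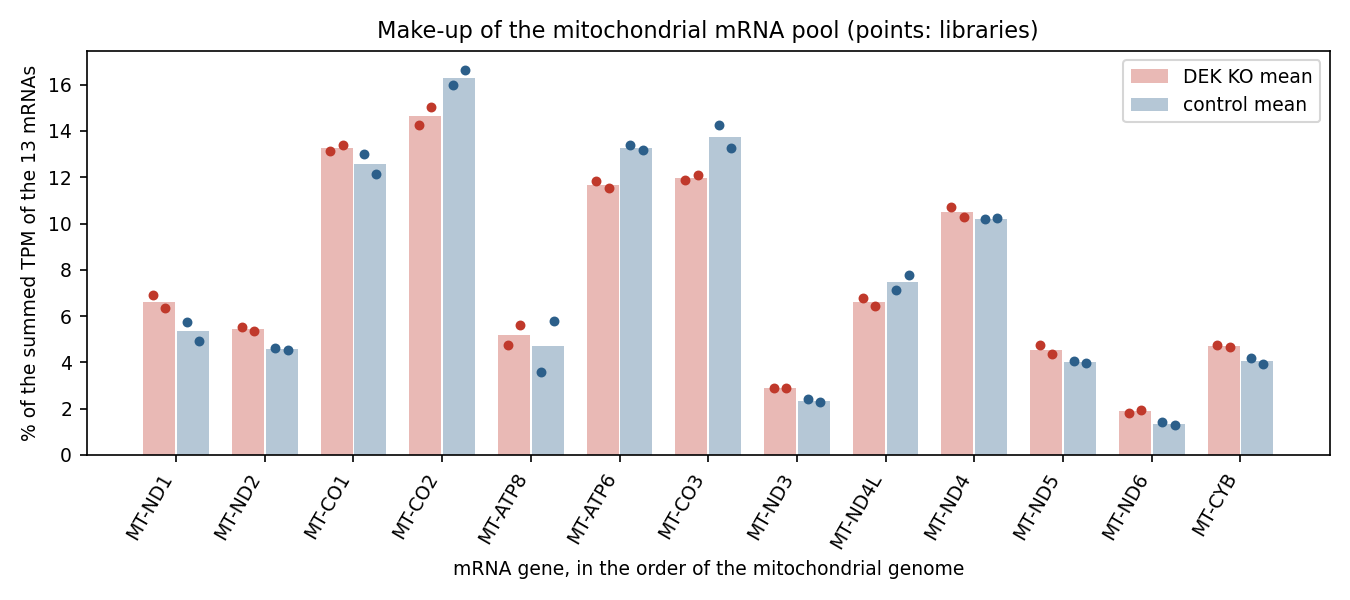
Percent of the summed TPM of the 13 mitochondrial mRNAs held by each, in genome order, with bars at the group means and points for the libraries, DEK KO left of control. The shares of MT-CO2, MT-ATP6, MT-CO3 and MT-ND4L are lower and those of MT-ND1, MT-ND2, MT-ND3, MT-ND4, MT-ND5, MT-ND6, MT-CO1 and MT-CYB higher in both knockouts, and those of MT-ATP8 overlap.

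Among the tRNAs 3 rose, 1 fell and 18 did not pass. The 18.2% that passed were near the 17.7% of all tested genes and the 14.9% of tested nuclear genes under 200 bases. MT-TY, the tyrosine tRNA of the minus strand, had 530.7 and 524.9 TPM in the knockouts, against 257.6 and 314.8 TPM in the controls, from 325 and 361 reads against 172 and 218 reads. The knockouts differ by less than their counting error (5.55% and 5.26%) and lie far above both controls (log2 fold change 0.89, SE 0.11; adjusted p = 0.017 by limma). The depth-adjusted ratio of reads was 1.84 (exact 95% interval 1.62 to 2.09, for counting error only). MT-TC, the cysteine tRNA next to it on the same strand, had 14.7 and 18.9 TPM in the knockouts, against 8.99 and 7.22 TPM in the controls, and rose (log2 fold change 0.96, SE 0.18; adjusted p = 0.033 by limma). It rests on 9 and 13 reads in the knockouts and 6 and 5 reads in the controls, and the exact 95% interval of its ratio of reads, 0.972 to 4.78, includes a ratio of 1.

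MT-TN and MT-TA complete this minus-strand cluster, in which the light-strand origin of replication lies between MT-TN and MT-TC. MT-TN, the asparagine tRNA, had 35.4 and 53.9 TPM in the knockouts and 35.2 and 20.9 TPM in the controls (limma adjusted p = 0.19). MT-TA, the alanine tRNA, had 48.4 and 43.1 TPM in the knockouts and 68.8 and 44.2 TPM in the controls, with overlapping groups. MT-TW, the tryptophan tRNA on the plus strand before the cluster, had 442 and 350.0 TPM in the knockouts and 254 and 345 TPM in the controls (limma adjusted p = 0.18).

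MT-TD, the aspartate tRNA between MT-TS1 and MT-CO2, had 370.8 and 369.7 TPM in the knockouts, against 284.9 and 284.5 TPM in the controls. Replicates of both groups were nearly equal, closer than a counting error of 6.18% to 7.14% per library would give. The gene rose (log2 fold change 0.38, SE 0.06; adjusted p = 0.023 by limma), but this SE takes no account of counting error. Its reads were 234 and 262 in the knockouts and 196 and 203 in the controls. The depth-adjusted ratio was 1.30 (exact 95% interval 1.14 to 1.49, for counting error only). With the GC trend removed from each library the log2 fold change was 0.91 (limma adjusted p = 0.052). MT-TD has 23.5% G and C.

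The most abundant tRNA by TPM was MT-TS1, a serine tRNA of the minus strand, with 894.9 and 895.7 TPM in the knockouts and 733.4 and 877.2 TPM in the controls (limma adjusted p = 0.30). MT-TE, the glutamate tRNA beside MT-ND6 on the minus strand, had 380 and 356 TPM in the knockouts and 321 and 349 TPM in the controls (limma adjusted p = 0.25). MT-TT, the threonine tRNA, had 735 and 487 TPM in the knockouts and 530 and 478 TPM in the controls, and knockout 1 stood apart from the other 3 libraries. MT-TP, the proline tRNA of the minus strand beside the control region, was at 286.8 and 254.0 TPM in the knockouts, against 344.5 and 321.0 TPM in the controls, without passing (limma adjusted p = 0.074). Of the 8 minus-strand tRNAs 2 rose and 0 fell, with 2 higher and 1 lower at an unadjusted p under 0.05 by limma, a share near the 38.3% of all tested genes.

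The remaining tRNAs of moderate level did not pass. MT-TI, the isoleucine tRNA, had 54.7 and 50.1 TPM in the knockouts and 65.9 and 116.0 TPM in the controls, so control 2 stood apart (limma adjusted p = 0.12). MT-TQ, the glutamine tRNA, had 243.97 and 239.9 TPM in the knockouts and 212.8 and 263.4 TPM in the controls, with the knockouts between the controls. MT-TM, the methionine tRNA, had 80.8 and 74.8 TPM in the knockouts and 66.9 and 91.1 TPM in the controls, in the same arrangement. MT-TK, the lysine tRNA, had 8 and 9 reads in the knockouts and 7 and 16 in the controls, and MT-TG, the glycine tRNA, had 7 and 5 reads in the knockouts and 5 and 6 in the controls.

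The tRNAs were also grouped by the layout of the genes on their own strand. The 7 tRNAs with a gene of the same strand within 5 bases on each side (MT-TV, MT-TL1, MT-TG, MT-TR, MT-TH, MT-TS2 and MT-TL2) had a median of 4.40 TPM over their mean levels, against 240.0 TPM for the other 15. MT-TV and MT-TL1 were the high members among the 7. Genes of the opposite strand were not counted as neighbours. MT-TS1 (chrM:7446-7514), which adjoins MT-CO1 and lies close to MT-TD, both on the plus strand, is therefore among the 15. Whether the medians would differ in this way with neighbours on either strand was not tested. How reads that span several genes were counted is not given in the sources used here, and their part in this difference was not tested. The lowest members were MT-TR, the arginine tRNA, with 0 and 1 reads in the knockouts and 8 and 0 in the controls, and MT-TS2, the other serine tRNA, with 0 and 2 reads in the knockouts and 1 in each control. MT-TL2, the second leucine tRNA, had 0 and 7 reads in the knockouts and 2 and 4 in the controls, and MT-TH, the histidine tRNA, had 1 or 2 reads in every library. For a tRNA such as MT-TR, 0 reads in knockout 1 allow up to 4.97 TPM, counted at 3 reads. The depth-adjusted ratio of reads for MT-TR was 0.131 (exact 95% interval 0.00295 to 0.975, for counting error only), but all 8 control reads came from control 1 and the groups overlapped. For MT-TS2, MT-TL2 and MT-TH the corresponding intervals include a ratio of 1.

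**Figure D5:**
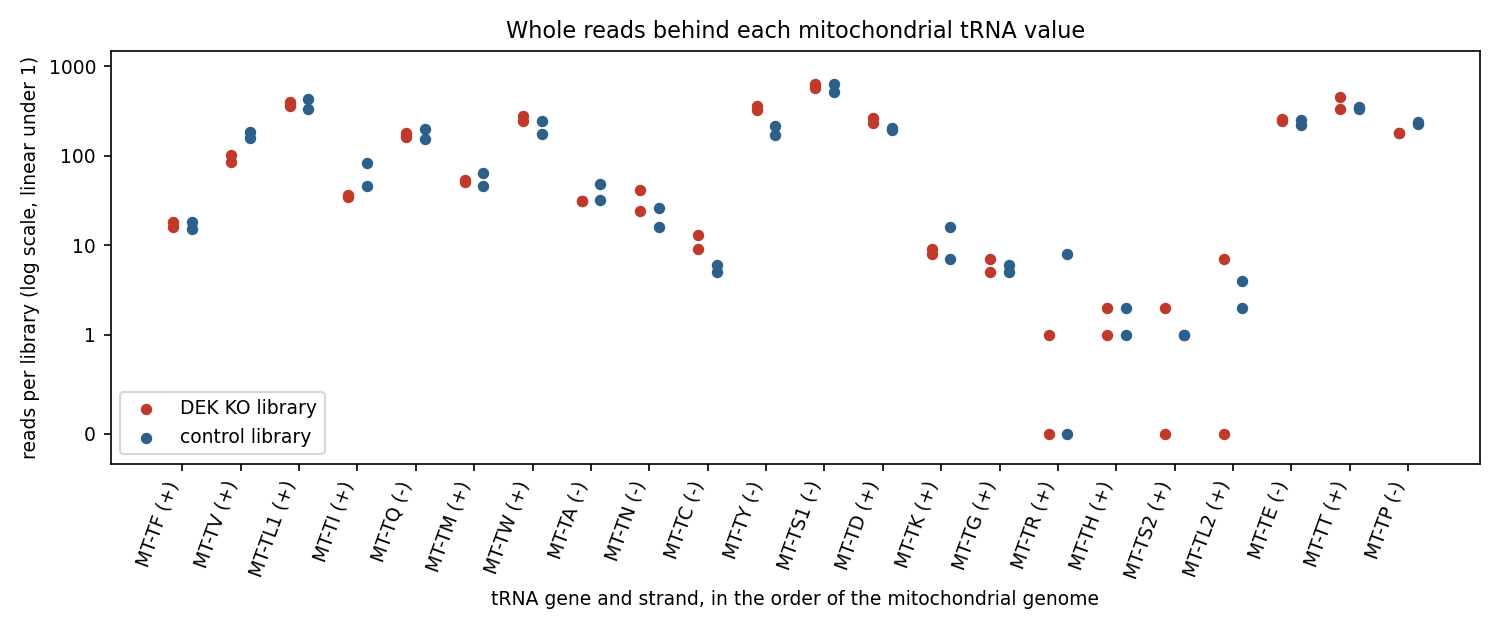
Whole reads behind the value of each of the 22 mitochondrial tRNAs, 1 point per library, in genome order with the strand in brackets, DEK KO left of control (log axis, linear under 1). MT-TV is lower and MT-TY higher in both knockouts, and MT-TR, MT-TH, MT-TS2 and MT-TL2 have 0 to 8 reads in every library.

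Copies of mitochondrial DNA in the nuclear genome can take reads from these genes. An insertion on chromosome 1 holds copies of MT-ND1, MT-ND2, MT-CO1, MT-CO2, MT-ATP8, MT-ATP6 and MT-CO3 that are 97.6% to 99.1% identical to them in their reference sequence. MTATP6P1 (chromosome 1, 633696 to 634376) had 1509 and 1600 TPM in the knockouts and 1463 and 1644 TPM in the controls, which is 8.59% and 9.18% of MT-ATP6 in the knockouts and 7.05% and 7.22% in the controls. The other 6 copies stood at 0.088% to 0.370% of their mitochondrial gene, although MTATP6P1 differs from MT-ATP6 at 10 of 681 aligned bases and MTCO3P12 from MT-CO3 at 10 of 547. Summed with MTATP6P1, MT-ATP6 had 19088 and 19029 TPM in the knockouts and 22233 and 24406 TPM in the controls, with both knockouts again below both controls.

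Of the 9 nuclear copies tested 2 rose and 0 fell, which is 22.2% against 17.7% of all tested genes. At an unadjusted p under 0.05 by limma the count was also 2, against 38.3% of all tested genes. MTND1P23 rose to 29.5 and 25.8 TPM in the knockouts, against 16.2 and 18.2 TPM in the controls (log2 fold change 0.65, SE 0.12, limma adjusted p = 0.032), and MTND2P28 to 23.4 and 25.2 TPM, against 18.1 and 18.0 TPM (log2 fold change 0.41, SE 0.10, limma adjusted p = 0.049). Both are copies of complex I genes whose mitochondrial values were higher in both knockouts without passing. MTATP8P1 had 6.25 and 7.88 TPM in the knockouts and 6.68 and 16.1 TPM in the controls, a spread between the controls in the same direction as that of MT-ATP8. MTRNR2L12, a copy of part of MT-RNR2 on chromosome 3, had 3.60 and 3.93 TPM in the knockouts and 4.33 and 4.09 TPM in the controls.

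The nuclear genes that make and handle mitochondrial RNA were described by 6 lists. Of 86 tested genes in these lists 1 rose and 3 fell, which is 4.65% against 17.7% of all tested genes. At an unadjusted p under 0.05 by limma the count was 33 of 86, near the 38.3% of all tested genes. The lists had a median log2 fold change of -0.17 against -0.06. The count of genes past the threshold changed with scaling and with single libraries. It was 11 when TPM were scaled over nuclear genes only, 10 with the GC trend removed, 31 without knockout 1, 10 without knockout 2 and 0 without either control. Of the 10 transcription genes, POLRMT among them, 0 passed by limma, and 2 had an unadjusted p under 0.05, beside 38.3% of all tested genes. These were TFAM, with 14.3 and 10.5 TPM in the knockouts and 26.3 and 18.7 TPM in the controls, and TFB2M. TFB2M had 27.2 and 19.1 TPM in the knockouts and 39.4 and 37.7 TPM in the controls. The log2 fold changes were -0.81 for TFAM and -0.73 for TFB2M (limma adjusted p = 0.068 and 0.054). Of 24 tested genes of tRNA and rRNA modification 0 passed by limma, and 9 had an unadjusted p under 0.05, beside the same 38.3%.

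In each of the other lists 1 gene passed by limma, beside 17.7% of all tested genes. More genes had an unadjusted p under 0.05 by limma, beside 38.3% of all tested genes. They were 8 of 19 for replication and the nucleoid and 4 of 10 for the biogenesis regulators. For tRNA excision and processing they were 6 of 13, and for mRNA stability, polyadenylation and decay 4 of 11. PPARGC1A, the coactivator PGC-1alpha that promotes mitochondrial biogenesis (chromosome 4, 23755041 to 23904089), had 1.57 and 0.587 TPM in the knockouts, against 6.93 and 5.98 TPM in the controls, and fell (log2 fold change -1.88, SE 0.28; adjusted p = 0.023 by limma). It was the only one of 10 tested biogenesis regulators to pass. TK2, the thymidine kinase of mitochondria that supplies nucleotides for mitochondrial DNA (chromosome 16, 66508003 to 66552544), had 13.9 and 14.9 TPM in the knockouts, against 5.92 and 6.46 TPM in the controls, and rose (log2 fold change 1.10, SE 0.12; adjusted p = 0.016 by limma). It was 1 of 19 genes of replication and the nucleoid.

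LACTB2, a mitochondrial endoribonuclease (chromosome 8, 70635318 to 70669174), had 33.8 and 24.5 TPM in the knockouts, against 76.8 and 69.7 TPM in the controls, and fell (log2 fold change -1.32, SE 0.17; adjusted p = 0.019 by limma). It was the only one of 11 genes of mRNA stability, polyadenylation and decay to pass. FASTKD1, an RNA-binding protein of the FASTK family in mitochondria (chromosome 2, 169529749 to 169573875), had 7.90 and 6.92 TPM in the knockouts, against 15.5 and 12.7 TPM in the controls, and fell (log2 fold change -0.84, SE 0.15; adjusted p = 0.031 by limma). It was 1 of 13 genes of tRNA excision and processing. TK2, LACTB2, PPARGC1A and the nuclear copies MTND1P23 and MTND2P28 overlap other annotated genes, so their values are uncertain to that extent.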

How the data were processed

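Polyadenylated RNA of 2 DEK knockout and 2 control libraries was compared, with groups taken from the sample titles. The authors deposited TPM for 59409 symbols, each column summing to 1000000. Tools listed in the submitters' processing notes are STAR 2.7.8a, cutadapt 1.18, DESeq2 1.36.0 and featureCounts 2.0.1, with the build hg38, without saying what each was used for. Neither the annotation nor the gene lengths behind the TPM are stated in the sources used here. Positions and lengths are those of GENCODE release 29 on GRCh38, counted from 1. Estimated depth was 35831423 and 40058972 reads in the knockouts and 38913267 and 39528538 reads in the controls, summed over symbols matched to this annotation. Over all genes, 54.6% to 56.5% of values under 200 reads came within 0.02 of a whole read, so these totals are approximate. Of the estimated reads, the mitochondrial genes held 3.98% and 3.98% in the knockouts and 4.22% and 4.63% in the controls. That is far below their share of TPM, which divide by gene length.

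The 15815 genes that reached 1 TPM in 2 or more libraries were fitted as log2(TPM + 1). The fit used limma 3.58.1 (R 4.3.3), a term for the group alone, a variance prior following mean expression, and Benjamini-Hochberg adjustment at 0.05 over all of them. Fold changes on the log2(TPM + 1) scale understate changes of low genes. The fit does not use read counts, so the SE of a tRNA can lie below its counting error and its p-value can be too small. Class, strand and complex sums were compared with exact two-sided permutation tests over libraries, which cannot go below p = 0.333 here. Whole reads were recovered to within 0.001 of a read, and the intervals and limits made from them hold for counting error alone. The procedure was tested on simulated data. The members and lists were chosen with earlier results of these data known. All members could be named. From each nuclear list up to 4 genes past the threshold were named, namely those with the smallest p, and of the nuclear copies those with a mean of at least 1 TPM. POLRMT, TFAM and TFB2M were named outside this rule. Alternatives covered the pseudocount, filter, scaling, variance prior, threshold, a replicate block, and each library left out in turn. A fit without the GC trend was added after the data had been seen.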

Additional observations from a re-analysis of the deposited data

How the results depend on the processing

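Across the 13 alternatives of the fit, the 8 mitochondrial genes that passed kept their direction in every one. None of the 8 passed in every alternative, and 15 other genes changed sign in at least 1. The number of mitochondrial genes that passed, 8 in all, was 0 without a filter on low values, 0 at a threshold of 0.01 and 2 with a single variance prior, and 0 to 11 with single libraries left out. The number of nuclear genes of mitochondrial RNA metabolism, 4 in all, was 10 with the replicate block, 11 with TPM scaled over nuclear genes, 10 with the GC trend removed, 0 without a filter and 0 at 0.01, and 0 to 31 with single libraries left out. The number of all genes past the threshold was 26 without a filter, 90 at 0.01 and 1437 with a single variance prior, and 47 to 5510 with single libraries left out, lowest without control 1 and highest without knockout 1. Without a filter 31270 genes were tested, against 15815. The cause was not tested for any of these drops. DEK had a log2 fold change of -1.89 with adjusted p = 0.096 without a filter, 0.056 with a single variance prior and 0.030 at the threshold of 0.01, and its log2 fold change lay between -2.37 and -1.41 with single libraries left out. The log2 ratio of the mitochondrial share of TPM, -0.14 over all libraries, lay between -0.21 and -0.067 with single libraries left out, and that of the mRNA share, -0.13, between -0.21 and -0.051, nearest to 0 without control 2. The ratios of the rRNA, tRNA and minus-strand shares moved by less than the spread between replicates under every alternative run.

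Sign changes among genes that did not pass were as follows. With scaling by the median ratio the log2 fold change was 0.055 for MT-TM and 0.011 for MT-CO1, and with quantile normalization it was 0.16 for MT-CO1 (adjusted p = 0.043). With the GC trend removed it was -0.024 for MT-TQ, 0.019 for MT-TM, 0.17 for MT-TK and 0.094 for MT-TP. With single libraries left out the value lay between -0.053 and 0.27 for MT-TF, -0.078 and 0.24 for MT-TL1, -0.12 and 0.18 for MT-TQ, -0.23 and 0.21 for MT-TM, and -0.58 and 0.047 for MT-TA. It lay between -0.77 and 0.29 for MT-TK, -0.37 and 0.48 for MT-ATP8, -0.13 and 0.46 for MT-TG, -0.34 and 0.44 for MT-TH, -1.40 and 0.69 for MT-TS2, -2.30 and 1.09 for MT-TL2, -0.014 and 0.11 for MT-ND5, and -0.047 and 0.54 for MT-TT. Same-numbered libraries deviated together with a correlation of 0.0989 across genes. With 2 libraries per group this value cannot show whether the replicate numbers pair the libraries. With the replicate block 6 of the 8 genes passed, all but MT-ATP6 (adjusted p = 0.080) and MT-CO3 (0.064), and the count over all genes was 2971. Calls were gained by MT-TE with the GC trend removed, by MT-TP without knockout 1, and by MT-TT, MT-TS2 and MT-TL2 without knockout 2. Depth limits the tRNAs with few reads.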
